A study of Mus musculus with 16 samples.

Results

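Cells stably carrying a vector for the noncoding RNA MUNC were compared with cells carrying an empty vector (EV) while both were proliferating. The comparison uses 4 of the 16 libraries of the series: 2 labelled WT with MUNC and 2 labelled WT with EV, all in GM. They were chosen by their labels alone. The study measured poly(A) RNA of C2C12, a mouse line of skeletal muscle myoblasts that fuse into myotubes when serum is withdrawn. Its other groups repeat both vectors in a differentiating condition (DM) and in cells labelled MYOD-/-, made with CRISPR-Cas9 and isolated by screening single cells.

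Per the labels, both groups are C2C12 of C57BL/6 background, from skeletal muscle, of postnatal day 21, with genotype wild type. The MUNC group carries a vector coding for spliced MUNC, the EV group a control vector without it. Whether each stable line is 1 clone or a pool of transfected cells is unstated in the labels, and each vector is represented by 1 line as far as the labels say, so that the vector and the history of the line cannot be told apart. Whether replicates 1 and 2 are separate cultures is also unstated. The p-values rest on the spread between replicates over all 16 libraries of the series, and this spread may be technical.

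MUNC is transcribed upstream of Myod1, in the region of an enhancer that controls this gene, and is known as an enhancer RNA that promotes myogenic gene expression in mouse myoblasts. Myod1 encodes MyoD, the basic helix-loop-helix factor that commits cells to the muscle lineage, binds the E-box motif CANNTG and activates Myog, muscle structural genes and genes of the neuromuscular synapse. In proliferating myoblasts MyoD and the related Myf5 mark the lineage, and most contractile genes are silent until the cells leave the cell cycle.

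MUNC is listed as Gm45923, on the forward strand of chromosome 7 (46371403 to 46372492, GRCm38), and 3982 bases separate its end from the start of Myod1 (46376474 to 46379092). The sequence around its start is shown because it places the overexpressed gene next to Myod1. It is the RefSeq promoter (GRCm38.p6, chr7:46371153-46371452), from 250 bases before to 50 after the start, with the single CANNTG match in capitals.
Gm45923: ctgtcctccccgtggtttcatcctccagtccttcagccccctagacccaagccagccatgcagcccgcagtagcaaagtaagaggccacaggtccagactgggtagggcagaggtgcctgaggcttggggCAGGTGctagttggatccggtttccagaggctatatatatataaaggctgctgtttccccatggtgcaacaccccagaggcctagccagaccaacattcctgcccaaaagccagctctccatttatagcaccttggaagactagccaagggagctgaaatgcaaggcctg
CANNTG reads the same on both strands and was present in 75% of the 27025 genes with a promoter in the RefSeq table, so that a match is no particular feature of this window.

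The 4 libraries held 52.97 to 63.42 M estimated counts, within the range of 35.83 to 107.7 M over all 16. Across genes, log2 CPM (each library's counts scaled to a common total with TMM) correlated at 0.989 between the EV libraries, at 0.987 between the MUNC libraries and at 0.956 to 0.967 between the groups. Replicates differed by more than sampling noise. Their chi-square per degree of freedom over genes, Zrsr1 included, was 227 in EV and 392 in MUNC. Zrsr1 alone, with 7344 and 1426030 counts in EV and 8582 and 3284350 in MUNC, adds a large part of both values. All 4 were counted as separate samples, although such an excess cannot tell separate cultures from technical spread. Zrsr1 held 2.69% and 5.51% of the counts of the second replicate of EV and MUNC and 0.0117% and 0.0135% of the first.

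MUNC itself was present at 11 and 1.49 CPM in the EV libraries and at 1821 and 2225 CPM in the MUNC libraries. Both MUNC libraries lay far above both EV libraries, by a log2 fold change of 8.33 ± 1.50 (SE; edgeR adjusted p = 0.00399). Vector-derived and endogenous reads of MUNC could not be separated. It was at 132 and 106 CPM in the knockout-labelled MUNC libraries in GM, whose EV controls held 12.4 and 1.3 CPM.

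Myod1 was almost absent from the WT-labelled EV libraries, at 0.291 and 0.0191 CPM, and reached 3.72 and 4.06 CPM with MUNC. The groups did not overlap, and the rise was 4.56 ± 0.73 on the log2 scale (edgeR adjusted p = 0.00192). The 4 knockout-labelled libraries in GM held more Myod1 than any WT-labelled one (13.9 and 11.9 CPM with EV, 8.17 and 4.18 CPM with MUNC). The gene thus goes against the genotype labels. Which part of Myod1 was deleted is unstated in the labels, so that total counts need not show the deletion, and the cells are called WT-labelled and knockout-labelled throughout. Values of knockout-labelled libraries are those in GM wherever DM is not named. The change in Myod1 with MUNC differed between the genotypes by 5.63 ± 0.91 (log2, interaction; edgeR adjusted p = 0.00491, or 0.0599 with only the groups compared). Of the other protein-coding genes within 500 kb of the MUNC start, Saal1 fell slightly (26.3 and 23.6 CPM to 19.2 and 17.5 CPM, log2 -0.44 ± 0.12, edgeR adjusted p = 0.0368) and Otog, under 0.4 CPM in all 4 libraries, passed the test downward. Neither call held when any 1 of the 4 libraries was left out (adjusted p = 0.0729 to 0.227 for Saal1 and 0.0546 to 0.147 for Otog).

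Among genes of the myoblast surface, Musk, Rapsn, Chrna1 and Dysf rose with MUNC and Met fell. In all, 2060 of 14972 tested genes passed an adjusted p of 0.05 (13.8%), 905 higher with MUNC (6.04%) and 1155 lower (7.71%). These shares stand behind every count of list members given here. Of 24 tested genes of the myoblast surface and cytoskeleton, 5 rose and 1 fell, and the median log2 fold change was 0.13 (-0.03 over all tested genes).

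Musk, the muscle-specific kinase that organises the neuromuscular synapse, rose from 0.307 and 0.133 CPM to 5.64 and 7.95 CPM. Both MUNC libraries were higher, with a log2 fold change of 4.91 ± 0.76 (edgeR adjusted p = 0.00154). Rapsn, which anchors acetylcholine receptors beneath the synaptic membrane, was at 19.9 and 19 CPM with EV and at 41.7 and 45.9 CPM with MUNC. The libraries of each group lay close together and the rise was 1.17 ± 0.17 (edgeR adjusted p = 0.000961). Chrna1, a classical MyoD target that codes for the alpha chain of the acetylcholine receptor of muscle, was at 14.3 and 3.07 CPM with EV and at 86.4 and 40.6 CPM with MUNC. The groups did not overlap although replicates differed within each, and the rise was 2.87 ± 0.57 (edgeR adjusted p = 0.00699). This call was lost when only the libraries of the comparison were fitted (edgeR adjusted p = 0.108). Knockout-labelled libraries held Chrna1 at 167 and 121 CPM with EV and at 192 and 129 CPM with MUNC, above both WT-labelled groups. They held Musk at 0.1 to 0.718 CPM and Rapsn at 20.3 to 26 CPM, nearer to WT-labelled EV than to MUNC.

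The RefSeq promoter of Chrna1 (GRCm38.p6, chr2:73580289-73580588, reverse strand, 250 bases before to 50 after the start) is shown because this gene rose together with Myod1. Its 3 CANNTG matches are in capitals, and 2 of them read CAGCTG, a form found in 18.3% of genes with a promoter.
Chrna1: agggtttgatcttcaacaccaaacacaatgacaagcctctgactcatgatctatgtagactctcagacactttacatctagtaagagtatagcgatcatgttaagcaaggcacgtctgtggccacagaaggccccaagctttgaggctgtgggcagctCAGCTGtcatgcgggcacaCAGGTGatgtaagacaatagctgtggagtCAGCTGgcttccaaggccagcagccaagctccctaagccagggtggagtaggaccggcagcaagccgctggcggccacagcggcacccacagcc
Over all promoters such matches are common, and no binding was measured here.

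Dysf, which encodes the membrane repair protein dysferlin, rose from 0.129 and 0.248 CPM to 2.71 and 3.95 CPM (log2 4.15 ± 0.31, edgeR adjusted p = 1.46e-05). In GM every knockout-labelled library held Dysf at 4.18 to 4.71 CPM, above both WT-labelled groups. Met, the receptor for hepatocyte growth factor on muscle precursors, fell from 228 and 190.2 CPM to 119 and 80.6 CPM (log2 -1.06 ± 0.18, edgeR adjusted p = 0.00311), a call lost when only the comparison's own libraries were fitted (adjusted p = 0.0693).

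Of 16 tested myogenic regulators 2 rose, Myod1 and Mef2d, and none fell. The median log2 fold change was 0.20, or 0.05 with the 3 genes at 0 in a group set to the bound that 3 counts allow. Mef2d, a MADS-box partner of MyoD, was at 67.7 and 71.5 CPM with EV and at 93.7 and 101 CPM with MUNC (log2 0.49 ± 0.11, edgeR adjusted p = 0.014). It no longer passed without either EV library (adjusted p = 0.0996 and 0.0545), without the second MUNC library (0.103) or with only the comparison's own libraries (0.0826). Myf5 was at 85.5 and 102 CPM with EV and at 84.7 and 97 CPM with MUNC. These groups overlapped, and the log2 difference was -0.04 ± 0.24 (edgeR adjusted p = 0.936). Myog, the differentiation factor, was under 0.2 CPM in all 4 libraries. Pax7, which marks satellite cells, was at 0.0162 and 0.0381 CPM with EV and had 0 counts with MUNC.

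Mymk, which encodes the fusion protein myomaker, had 0 counts in both EV libraries and 0.095 and 0.0903 CPM with MUNC, at least 3.56-fold above the limit of 3 counts over the EV group, and did not pass the test (edgeR adjusted p = 0.141), though it passed with the replicate block (0.0486) and with DESeq2 (0.0187). Of 41 tested sarcomere and contractile genes 1 rose and 1 fell, with a median of -0.05, and 0 to 1 rose and 0 fell without 1 library. Myh3, the embryonic myosin heavy chain, stayed under 0.3 CPM in all 4 libraries. Acta1, the skeletal muscle actin, was at 5.26 and 4.88 CPM with EV and at 1.39 and 11.6 CPM with MUNC, so that the MUNC libraries lay on both sides of EV.

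Cdh15, the muscle cadherin, followed the replicate number rather than the vector, at 88.5 and 13.8 CPM with EV and 80.9 and 11.1 CPM with MUNC. Des, the muscle intermediate filament desmin, was at 25.7 and 14.2 CPM with EV and at 12.3 and 3.03 CPM with MUNC (log2 -1.37 ± 0.71, edgeR adjusted p = 0.246). Of 17 tested genes of calcium handling 2 rose and 1 fell (1 to 2 and 0 to 1 without 1 library). Cacng1, a subunit of the skeletal muscle calcium channel, was at 5.3 and 1.75 CPM with EV and at 25.4 and 18.1 CPM with MUNC (log2 2.62 ± 0.49, edgeR adjusted p = 0.0051; 0.063 with only the comparison's own libraries).

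**Figure D1:**
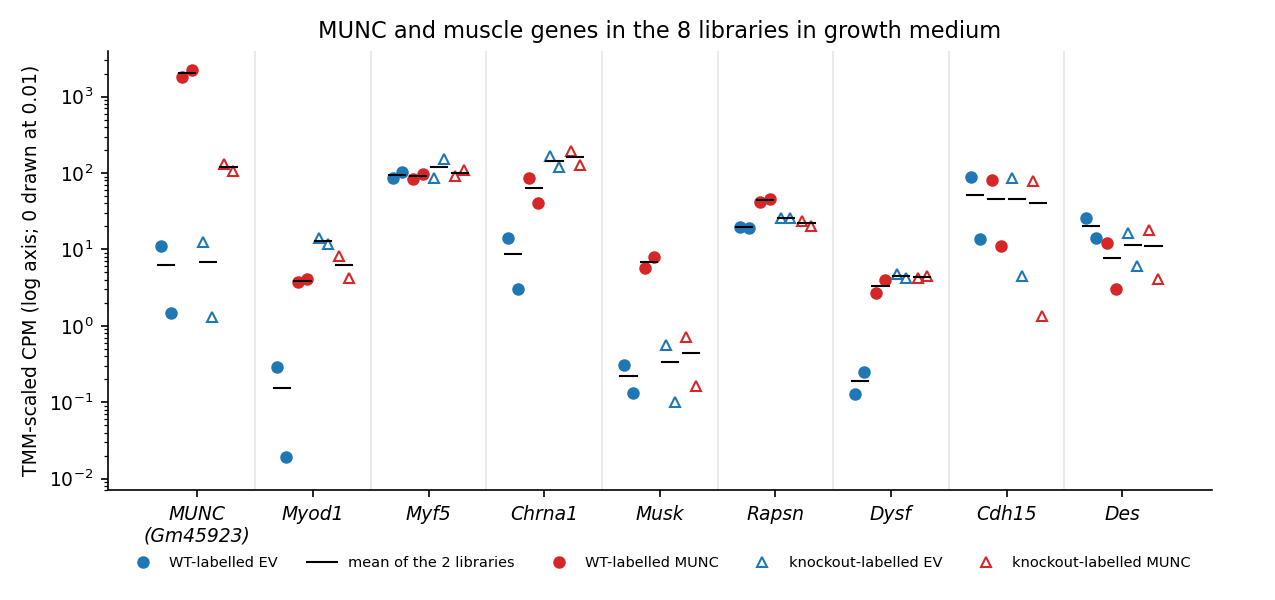
Level of MUNC and 8 muscle genes (TMM-scaled CPM, log axis) in each of the 8 libraries in GM; filled circles are WT-labelled, open triangles knockout-labelled, blue is EV and red is MUNC, and each black line is the mean of 2 libraries. MUNC, Myod1, Chrna1, Musk, Rapsn and Dysf are higher in both WT-labelled MUNC libraries than in both EV libraries, while Myf5, Cdh15 and Des overlap between EV and MUNC or did not pass the test.

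Of 22 tested genes in a list of Id, Hes and other inhibitors of myogenesis 2 rose and 1 fell, near the 13.8% of all tested genes, with 1 to 2 higher and 0 to 1 lower without 1 library. The larger of the 2 rises was in Fst, which stands in that list although it is known to favour muscle growth. It encodes follistatin, which binds activins and myostatin, and was at 0.0809 and 0.114 CPM with EV and at 5.18 and 18.6 CPM with MUNC. Both MUNC libraries were higher, by 6.91 ± 0.88 on the log2 scale (edgeR adjusted p = 0.000428). Snai2, a zinc finger repressor, fell from 68.7 and 45.6 CPM to 23.3 and 14.4 CPM (log2 -1.60 ± 0.40, edgeR adjusted p = 0.0209). Its call was lost without the first EV library (0.144), without the second MUNC library (0.163) and with only the comparison's own libraries (0.0587).

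Id1 and Id3, which encode inhibitors that sequester the partners of MyoD, differed by replicate. Id1 was at 12.6 and 103 CPM with EV and at 29.9 and 133 CPM with MUNC (log2 0.50 ± 1.16, edgeR adjusted p = 0.836). Id3 was at 13.3 and 97.3 CPM with EV and at 32.8 and 122 CPM with MUNC (log2 0.49 ± 0.90, edgeR adjusted p = 0.787). In both genes the first replicate of each group was the lower one. Of 18 tested Notch pathway genes 3 rose, with 1 to 3 when any 1 library was left out. The ligand Jag2 rose from 11.6 and 13.2 CPM to 29.3 and 34.3 CPM (log2 1.36 ± 0.28, edgeR adjusted p = 0.00933), and lost its call without the first EV library (0.0778) or the second MUNC library (0.0597).

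Over the whole transcriptome the changes were often of great size. The median absolute log2 fold change of the 2060 called genes was 1.14, and 485 rose and 634 fell by more than 2-fold, of which 133 and 100 changed by more than 16-fold. In 2059 of the 2060 the groups did not overlap, which passing the test makes likely. Over all tested genes this held for 24.2% upward and 29.7% downward. The exception was Kif26a, whose EV libraries held 1 and 0.0572 CPM and whose MUNC libraries held 0.0634 and 0.0361 CPM, and whose call was lost without the first EV library (edgeR adjusted p = 0.957) or without either MUNC library (0.162 and 0.231). When any 1 of the 4 libraries was left out, 963 to 1200 genes passed. With 1 library in a group, that library was assumed to vary like the other groups.

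The largest rises included genes of signalling, adhesion and secretion. Itpkb, a kinase that turns the second messenger inositol trisphosphate into inositol tetrakisphosphate, had 0.0323 and 0 CPM with EV and 9.11 and 14.2 CPM with MUNC (log2 9.23 ± 0.67, edgeR adjusted p = 1.28e-05). Epha4, an ephrin receptor, rose from 0.194 and 0.0381 CPM to 13.3 and 21.1 CPM (log2 7.13 ± 0.58, edgeR adjusted p = 2.34e-05). Npnt encodes the basement membrane integrin ligand nephronectin and rose from 0.469 and 0.343 CPM to 20.9 and 91.9 CPM (log2 7.10 ± 1.07, edgeR adjusted p = 0.00131).

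These 3 genes were nearly silent in both EV libraries and clearly present in both MUNC libraries, although the MUNC replicates of Npnt differed strongly. Cd24a, a surface glycoprotein, rose from 0.162 and 0.0381 CPM to 12.1 and 14.6 CPM. Ptx3, a secreted pattern recognition protein, rose from 0.291 and 0.114 CPM to 22.6 and 21.7 CPM. Pogk, a zinc finger gene with a transposase-derived domain, rose from 0.679 and 0.324 CPM to 41.6 and 49.6 CPM. Their log2 fold changes were 6.98, 6.73 and 6.48, all past the test.

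By difference in CPM, which is not per length, the called genes that gained most after MUNC itself were Prl2c3 and Prl2c2, which encode forms of the secreted prolactin-like hormone proliferin. Prl2c3 was at 8.57 and 20.1 CPM with EV and at 814 and 2029.6 CPM with MUNC (log2 6.63 ± 1.31, edgeR adjusted p = 0.00675). Prl2c2 was at 34.3 and 95.7 CPM with EV and at 719 and 1511 CPM with MUNC (log2 4.10 ± 1.10, edgeR adjusted p = 0.0298). In both groups the second replicate was the higher one, as it was in the knockout-labelled libraries, where Prl2c3 ranged from 159 to 1507 CPM. Without the first EV library neither passed (adjusted p = 0.0732 and 0.191), and Prl2c2 also did not pass without the second EV (0.0839) or second MUNC library (0.119). The genes are close paralogs, so that reads may have been assigned to either.

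The largest falls were in genes that the MUNC libraries had nearly lost. Perp, a desmosomal membrane protein and p53 target, was at 24.8 and 19 CPM with EV and at 0.0317 and 0 CPM with MUNC (log2 -10.19 ± 0.72, edgeR adjusted p = 1.18e-05). Bckdhb, a subunit of the enzyme complex that breaks down branched-chain keto acids, was at 12.6 and 10.4 CPM with EV and at 0.0317 and 0 CPM with MUNC (log2 -9.26 ± 0.83, edgeR adjusted p = 0.000136). Both genes were also absent or nearly so from the 4 knockout-labelled libraries, at 0.0251 CPM or less, so that the WT-labelled EV libraries were the ones that stood apart.

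Abcb1b, one of the mouse genes for the drug efflux pump P-glycoprotein, lost most of the called genes by difference in CPM, from 1212 and 1641 CPM to 43.4 and 40.3 CPM (log2 -5.09 ± 0.32, edgeR adjusted p = 5.87e-06). Its level in the knockout-labelled libraries was 46.9 to 64.2 CPM, close to MUNC. Unc5c, a netrin receptor, fell from 28.9 and 32.4 CPM to 0.586 and 0.217 CPM (log2 -6.23 ± 0.51, edgeR adjusted p = 2.34e-05). Ccnb1ip1, a ubiquitin ligase known for its role in meiotic crossing over, fell from 33.2 and 39.1 CPM to 0.554 and 0.433 CPM (log2 -6.18 ± 0.47, edgeR adjusted p = 1.61e-05).

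**Figure D2:**
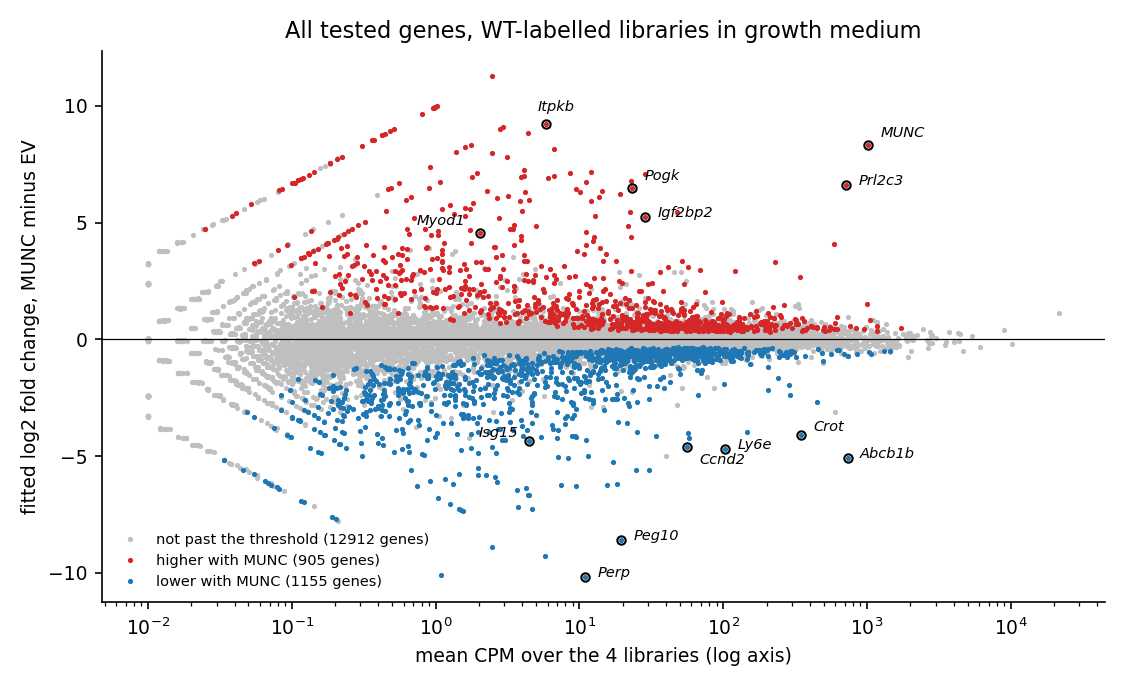
Fitted log2 fold change of MUNC minus EV against the mean CPM of the 4 WT-labelled libraries in GM (log axis), 1 point for each of 14972 genes; red marks the 905 genes higher with MUNC, blue the 1155 lower. Called genes spread over the whole range of levels, with MUNC at the upper right and Abcb1b, at a log2 fold change of -5.09, at the lower right.

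Interferon-induced genes were lower in the MUNC than in the EV libraries. Of 40 tested genes of the interferon response 15 fell and 0 rose, beside 7.71% and 6.04% of all tested genes. The median log2 fold change was -1.69, or -1.34 with the 3 genes at 0 in a group set to their bound, and 36 of the 40 values were negative. The number lowered was 6 without the first EV library, 6 without the second MUNC library, 12 without the first MUNC library and 16 without the second EV library. The 40 genes summed to 459 and 321 CPM with EV and to 240.2 and 209 CPM with MUNC.

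Isg15, a ubiquitin-like modifier, was at 11.6 and 5.36 CPM with EV and at 0.538 and 0.271 CPM with MUNC. The groups did not overlap and the fall was -4.37 ± 0.47 on the log2 scale (edgeR adjusted p = 0.000147). Ifit1, which binds foreign RNA, was at 28.1 and 16.1 CPM with EV and at 0.776 and 0.614 CPM with MUNC (log2 -4.98 ± 0.58, edgeR adjusted p = 0.000244). Ifih1, which encodes the double-stranded RNA sensor MDA5, fell from 19.1 and 8.41 CPM to 0.681 and 0.126 CPM (log2 -5.05 ± 0.79, edgeR adjusted p = 0.00166). In these 3 genes the first replicate was the higher one in both groups, by less than the distance between the groups. Knockout-labelled libraries with either vector held Isg15 at 0.426 to 1.15 CPM, Ifit1 at 1.5 to 4.58 CPM and Ifih1 at 0.877 to 3.15 CPM. These levels were below both WT-labelled EV libraries. For Ifit1 and Ifih1 they were above both WT-labelled MUNC libraries, and for Isg15 they overlapped MUNC.

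The chemokines Cxcl10 and Ccl5, both induced by interferon or by sensing of nucleic acids, fell further. Cxcl10 was at 9.54 and 8.16 CPM with EV and at 0.0475 and 0.126 CPM with MUNC (log2 -6.67 ± 0.62, edgeR adjusted p = 5.41e-05). Ccl5 was at 9.78 and 7.55 CPM with EV and at 0.158 and 0 CPM with MUNC (log2 -6.66 ± 0.85, edgeR adjusted p = 0.000437). Knockout-labelled libraries with either vector held Cxcl10 at 0.402 to 0.551 CPM and Ccl5 at 0.347 to 0.764 CPM, between the WT-labelled EV and MUNC libraries. Of 20 tested cytokines and chemokines 4 fell and 0 rose, with a median of -0.71 and 3 to 4 called without 1 library, and the 4 included Lif, a cytokine of the interleukin 6 family (5.53 and 6.79 CPM to 1.5 and 1.35 CPM, log2 -2.10 ± 0.29, edgeR adjusted p = 0.000785).

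Promoters of Isg15, Ifit1 and Cxcl10 are shown because these genes fell together and belong to a class with a known DNA element. They are RefSeq promoters of GRCm38.p6, 250 bases before to 50 after the start, on chr4:156200769-156201068 (reverse strand), chr19:34640639-34640938 (forward) and chr5:92348840-92349139 (reverse), each written along its gene. Matches to GAAANNGAAA on either strand, a simple form of the interferon-stimulated response element, are in capitals. The 3 matches of Isg15 overlap, and the 2 of Ifit1 are on the other strand and so appear as their reverse complement.
Isg15: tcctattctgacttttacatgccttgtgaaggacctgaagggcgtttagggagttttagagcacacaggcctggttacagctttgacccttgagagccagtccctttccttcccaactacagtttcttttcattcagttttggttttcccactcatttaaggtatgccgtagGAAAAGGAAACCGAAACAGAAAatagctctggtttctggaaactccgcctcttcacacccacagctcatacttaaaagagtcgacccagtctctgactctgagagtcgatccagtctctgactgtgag
Ifit1: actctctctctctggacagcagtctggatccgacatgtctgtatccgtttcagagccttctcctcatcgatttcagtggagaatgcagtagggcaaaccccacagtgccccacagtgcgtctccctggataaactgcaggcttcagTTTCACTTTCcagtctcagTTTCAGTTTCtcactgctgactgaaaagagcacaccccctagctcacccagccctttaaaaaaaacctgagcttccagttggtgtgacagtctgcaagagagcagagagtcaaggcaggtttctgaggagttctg
Cxcl10: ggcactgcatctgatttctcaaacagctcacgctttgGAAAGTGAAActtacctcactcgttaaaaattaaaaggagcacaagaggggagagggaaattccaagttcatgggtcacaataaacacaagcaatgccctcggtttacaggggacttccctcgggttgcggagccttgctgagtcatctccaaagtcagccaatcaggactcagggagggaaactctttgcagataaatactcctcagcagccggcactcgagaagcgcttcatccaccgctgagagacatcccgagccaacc
The motif was present in 16 of the 30 interferon response genes with a promoter in the table (53.3%), in 3.99% of all 27025 genes with one and in 3.74% of those tested. It was present in 8 of 13 lowered members (61.5%) and in 8 of 17 members that were not called (47.1%).

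Genes of antigen presentation fell by less. Of 17 tested, 7 fell and 0 rose, with a median of -0.63 and with 4 to 7 called when 1 library was left out. H2-K1, a classical class I heavy chain, was at 42.9 and 43.7 CPM with EV and at 19.5 and 18.4 CPM with MUNC (log2 -1.19 ± 0.15, edgeR adjusted p = 0.00036). H2-D1 moved alike, from 45.6 and 45.4 CPM to 19.2 and 20.4 CPM (log2 -1.20 ± 0.16, edgeR adjusted p = 0.000693). The knockout-labelled libraries held both genes at 17.9 to 22.6 CPM, the level of the MUNC libraries. Class I genes are close paralogs, and reads may have been divided between them.

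The surface protein Ly6e, itself induced by interferon, fell from 221 and 175 CPM to 10.9 and 4.37 CPM (log2 -4.69 ± 0.53, edgeR adjusted p = 0.000191). Ifitm3, a membrane protein that restricts viral entry and was chosen after its values were seen, fell from 259 and 308 CPM to 113 and 134 CPM (log2 -1.20 ± 0.14, edgeR adjusted p = 0.000246). Of 10 tested leukocyte genes 0 rose and 2 fell (1 to 2 without 1 library). The summed level of 6 leukocyte markers was 1.97 and 3.07 CPM with EV and 2.34 and 3 CPM with MUNC, and Tyrobp and Adgre1 were at 0 in all 4 libraries.

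**Figure D3:**
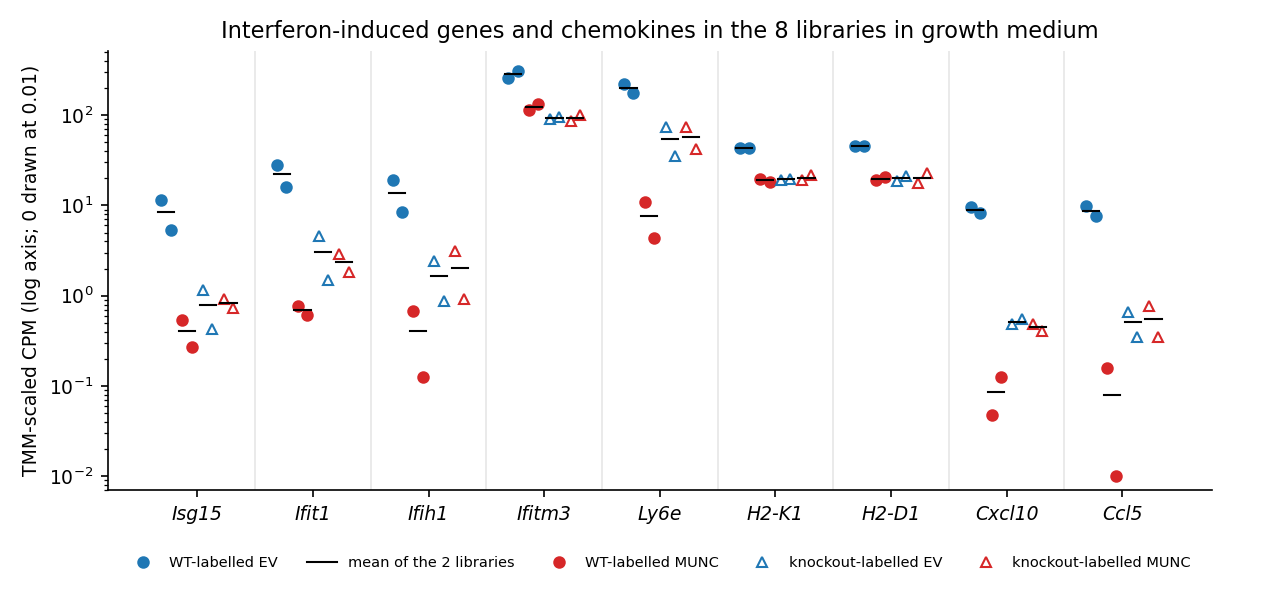
Level of 9 interferon-induced genes and chemokines (TMM-scaled CPM, log axis, 0 drawn at 0.01) in each of the 8 libraries in GM; filled circles are WT-labelled, open triangles knockout-labelled, blue is EV and red is MUNC, and each black line is the mean of 2 libraries. In every gene shown both WT-labelled MUNC libraries lie below both EV libraries, and H2-K1 and H2-D1 lie at 17.9 to 22.6 CPM in the MUNC and knockout-labelled libraries alike.

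Of 50 tested cell cycle genes 1 rose and 3 fell, beside 6.04% and 7.71% of all tested genes, with a median of -0.16. Without 1 library 0 rose and 1 to 2 fell. The proliferation marker Mki67 was at 510.0 and 556 CPM with EV and at 553 and 430.2 CPM with MUNC, and the groups overlapped (edgeR adjusted p = 0.786). Ccnd2, which encodes cyclin D2, was at 106 and 108 CPM with EV and at 6.62 and 2.06 CPM with MUNC. The fall was -4.62 ± 0.57 on the log2 scale (edgeR adjusted p = 0.000359), and the knockout-labelled libraries held 4.44 to 16.4 CPM. Ccnd1, for cyclin D1, was at 586 and 705 CPM with EV and at 433 and 504 CPM with MUNC (log2 -0.46 ± 0.25, edgeR adjusted p = 0.261, or 0.0295 with the replicate block).

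Cdkn1a, the p21 inhibitor that accompanies exit from the cycle, was at 241 and 215 CPM with EV and at 128 and 163 CPM with MUNC. Both MUNC libraries were lower, but the test was not passed (log2 -0.65 ± 0.20, edgeR adjusted p = 0.0591). It was passed with the replicate number as a block (0.0323), with DESeq2 (0.0274) and with limma on log2(TPM + 1) (0.0323). Cdkn2a had 0 counts in all 4 libraries.

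The insulin-like growth factor axis changed in both directions, with 4 of 16 tested genes higher and 4 lower (median 0.01). When 1 library was left out, 2 to 4 were higher and 1 to 2 lower. Igf2bp2, an RNA-binding protein known in mouse myoblasts for its role in proliferation, rose from 1.7 and 1.24 CPM to 50.9 and 60.7 CPM (log2 5.24 ± 0.28, edgeR adjusted p = 2.74e-06). Its relative Igf2bp1 fell from 15.5 and 19.7 CPM to 3.23 and 4.6 CPM (log2 -2.17 ± 0.43, edgeR adjusted p = 0.00707; 0.0652 without the first MUNC library). Igfbp3, a secreted binding protein, rose from 0.0323 and 0.0191 CPM to 3.45 and 3.63 CPM (log2 6.97 ± 1.40, edgeR adjusted p = 0.00745). Its call was lost without the first (0.0709) or second EV library (0.0633) and with limma (0.106). Igf2r, the mannose 6-phosphate receptor, fell from 111 and 90.2 CPM to 48 and 50.7 CPM (log2 -1.02 ± 0.18, edgeR adjusted p = 0.00302).

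Of 21 tested imprinted genes 1 rose and 3 fell (median -0.24). Gnas, the stimulatory G protein alpha subunit, rose from 759 and 751 CPM to 1245 and 1450.0 CPM (log2 0.84 ± 0.13, edgeR adjusted p = 0.00183). Peg10, a paternally expressed gene derived from a retrotransposon, fell from 34.4 and 43.5 CPM to 0.19 and 0 CPM (log2 -8.58 ± 0.90, edgeR adjusted p = 0.00013). Its neighbour Sgce, which encodes epsilon-sarcoglycan and is also expressed from the paternal allele, fell from 20.4 and 16.7 CPM to 0.428 and 0.0361 CPM (log2 -6.26 ± 0.79, edgeR adjusted p = 0.000409). All 4 knockout-labelled libraries held Peg10 at 29.9 to 38.2 CPM, so that here the MUNC libraries were the ones that stood apart.

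Of 38 tested interstitial collagens and matrix genes 2 rose and 2 fell (median 0.01), with 0 to 2 higher and 2 to 3 lower without 1 library. Tnc, which encodes the adhesion-modulating protein tenascin C, fell from 676 and 872 CPM to 153 and 86.7 CPM (log2 -2.69 ± 0.37, edgeR adjusted p = 0.000683). Thbs2, for thrombospondin 2, fell from 442 and 475 CPM to 118 and 120.0 CPM (log2 -1.95 ± 0.21, edgeR adjusted p = 0.000141). Both groups of Thbs2 were tight and far apart. Col1a1, the main fibrillar collagen chain, was at 1637 and 513 CPM with EV and at 205 and 42.4 CPM with MUNC. It did not pass (log2 -3.12 ± 1.12, edgeR adjusted p = 0.0919) but passed with the replicate block (0.00823) and with DESeq2 (0.0189).

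Of 22 tested basement membrane and integrin genes 4 rose and 1 fell (median 0.28), with 2 to 3 higher and 0 to 1 lower when 1 library was left out. Nid1, which links laminin and collagen networks, rose from 599.8 and 450.0 CPM to 1467 and 1507 CPM (log2 1.50 ± 0.24, edgeR adjusted p = 0.00196). The laminin receptor subunit Itga3 rose from 136 and 147 CPM to 251 and 308 CPM (log2 0.98 ± 0.18, edgeR adjusted p = 0.00409). Among 14 smooth muscle genes 1 rose and 3 fell (median -0.01), and the number lowered was 0 without the first MUNC library, 2 without either EV library and 3 without the second MUNC library. Tagln, which encodes the actin-binding protein transgelin, fell from 174 and 148 CPM to 33.6 and 52.6 CPM (log2 -1.90 ± 0.38, edgeR adjusted p = 0.00727; 0.067 without the first MUNC library). Synpo2, an actin-bundling protein of the Z-disc, rose from 1.76 and 1.41 CPM to 9.96 and 10.4 CPM (log2 2.68 ± 0.39, edgeR adjusted p = 0.00109). Acta2, smooth muscle actin, overlapped between the groups at 1371 and 1451 CPM with EV and 1144 and 2303 CPM with MUNC.

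Of 13 tested adipogenic genes 3 rose and 0 fell (median 0.33), with 1 to 3 higher when 1 library was left out. Pparg, the nuclear receptor that drives fat cell differentiation, rose from 5.09 and 7.46 CPM to 26.2 and 40.7 CPM (log2 2.42 ± 0.25, edgeR adjusted p = 0.000101). The summed adipocyte markers were 5.24 and 7.69 CPM with EV and 26.3 and 40.9 CPM with MUNC, nearly all of it Pparg. Of 27 tested Wnt pathway genes 5 rose and 2 fell (median 0.06), with 3 to 4 higher and 1 to 2 lower without 1 library. The receptor Fzd1 rose from 16 and 16.4 CPM to 47 and 51.9 CPM (log2 1.61 ± 0.16, edgeR adjusted p = 8.20e-05), and the co-receptor Lrp5 from 30.2 and 28.2 CPM to 71.1 and 77.6 CPM (log2 1.35 ± 0.15, edgeR adjusted p = 0.000211). Axin2, a common target of Wnt signalling that restrains it, fell from 2.47 and 2.8 CPM to 0.19 and 0.126 CPM (log2 -4.03 ± 0.47, edgeR adjusted p = 0.000241).

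Of 24 tested Hox genes 1 rose and 3 fell (median -0.18), with 1 higher and 1 to 2 lower without 1 library. Hoxc12 rose from 0.0162 and 0.0191 CPM to 0.903 and 1.75 CPM, and Hoxb6 fell from 0.97 and 1.47 CPM to 0.158 and 0.0542 CPM. Of 15 tested neural and Schwann cell genes 1 rose and 4 fell (median -0.56), with 0 to 1 higher and 1 to 2 lower without 1 library. Nefm, the medium neurofilament chain, fell from 54.9 and 64.7 CPM to 0.618 and 1.88 CPM (log2 -5.59 ± 0.95, edgeR adjusted p = 0.00288). In the same libraries 5 neural and Schwann markers summed to 27.3 and 26.2 CPM with EV and to 14.6 and 11 CPM with MUNC.

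Of 29 tested genes of sterol synthesis and uptake 2 rose and 0 fell, with a median of 0.68 and 27 positive values. With 1 library left out, 0 to 2 of them passed. None of 30 tested genes of the unfolded protein response passed (median -0.06), and of 22 glycolytic genes 0 rose and 1 fell (median -0.19), with 0 lower without 1 library. Counts in the other lists were small, and most were lower when 1 library was left out. Of 32 tested genes of TGF-beta, activin and BMP signalling 2 rose and 2 fell, with 0 higher and 0 to 2 lower without 1 library. Of 16 fibroblast-like and progenitor surface genes 4 rose and 2 fell, with 0 to 1 higher and 1 lower without 1 library. Of 27 immediate early and heat shock genes 3 rose and 1 fell, with 1 to 2 higher and 0 lower. Of 13 epithelial genes 3 fell (1 to 3 without 1 library), of 11 osteogenic and chondrogenic genes 2 (0 to 1), of 7 endothelial genes 1 (0) and of 12 cell cycle inhibitors 1 (0), and none of these lists had a gene that rose. Of 25 p53 targets 1 rose (0 to 1) and 2 fell (1 to 2). In the Hippo list (20 genes) 1 rose and 1 fell (0 and 0), and in the glutathione and NRF2 list (24 genes) 1 rose (0 to 1) and 1 fell (1). Of 14 candidate MUNC partners and genes of enhancer RNA machinery 1 fell (0).

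Markers of the labelled cell type were present in part. The 8 myoblast markers summed to 473 and 256 CPM with EV and to 466 and 241 CPM with MUNC. Myf5, Cdh15, Chrna1 and Des were present, while Pax7 was at or near 0. Myod1, also in this list, was at 0.291 and 0.0191 CPM with EV and at 3.72 and 4.06 CPM with MUNC. The 8 fibroblast markers summed to 4790.4 and 1599.6 CPM with EV and to 3686 and 1328 CPM with MUNC, largely collagens, with Thy1 at or near 0. Endothelial markers summed to 0.174 to 0.648 CPM and epithelial markers to 13.7 to 23.3 CPM, with Epcam at 0. In such bulk samples fewer cells of a type and less RNA per cell cannot be told apart.

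The changes were unevenly placed in the genome, an analysis added after the data were seen. On chromosome 11, 286 of 1235 tested genes fell (23.2%) and 21 rose (1.7%). Over its 824 genes of at least 5 CPM, the median log2 ratio of MUNC to EV was -0.35, and 86% of the ratios were negative. Over the 9812 such genes of the genome it was -0.00, and 50.5% were negative. The chromosome 11 median was -0.36 between the first replicates and -0.34 between the second, and it was -0.34 in the separate DM libraries.

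Against the 4 knockout-labelled libraries in GM, chromosome 11 was at 0.34 in EV and at -0.02 in MUNC, so that the EV libraries stood apart. The lowered genes were spread along the chromosome. With its genes split by position into 10 bins of near-equal number, medians were -0.10 and -0.17 in the first 2 bins and between -0.32 and -0.49 in the other 8. Leaving out 1 library left 115 to 154 lowered and 11 to 17 higher genes on it.

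On chromosome 6, 131 of 734 tested genes fell (17.8%) and 25 rose, and the median was -0.31. With 1 library left out, 62 to 88 of them fell and 11 to 18 rose. Its first 5 such bins had medians of -0.69 to -0.36 and its last 5 of -0.18 to -0.09. Against the knockout-labelled libraries the median was 0.08 in EV and -0.22 in MUNC, so that most of the distance lay on the MUNC side. Met, Dysf, Ccnd2, Pparg, Peg10 and Sgce are on chromosome 6, and Dysf and Pparg rose.

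Chromosomes 1 and 13 went the other way and had the highest medians, but not alone. Medians were 0.20 on chromosome 16, 0.18 on 12, 0.15 on 2 and on 5, and 0.12 on 10. Chromosomes 11 and 6 were likewise not the only low ones. Medians were -0.15 on 7 and on 15, -0.14 on 14, -0.13 on 9, -0.12 on 18 and -0.10 on X. On chromosome 1, 120 of 855 tested genes rose (14%) and 19 fell, with a median of 0.24. On chromosome 13, 64 of 580 rose (11%) and 14 fell, with a median of 0.23. Against the knockout-labelled libraries the chromosome 13 median was 0.05 in EV and 0.32 in MUNC. With 1 library left out, 44 to 61 genes of chromosome 1 and 26 to 39 of chromosome 13 rose, and 11 to 17 and 9 to 12 fell. The number of chromosome copies in these lines was not measured, and its part in the result was not tested.

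**Figure D4:**
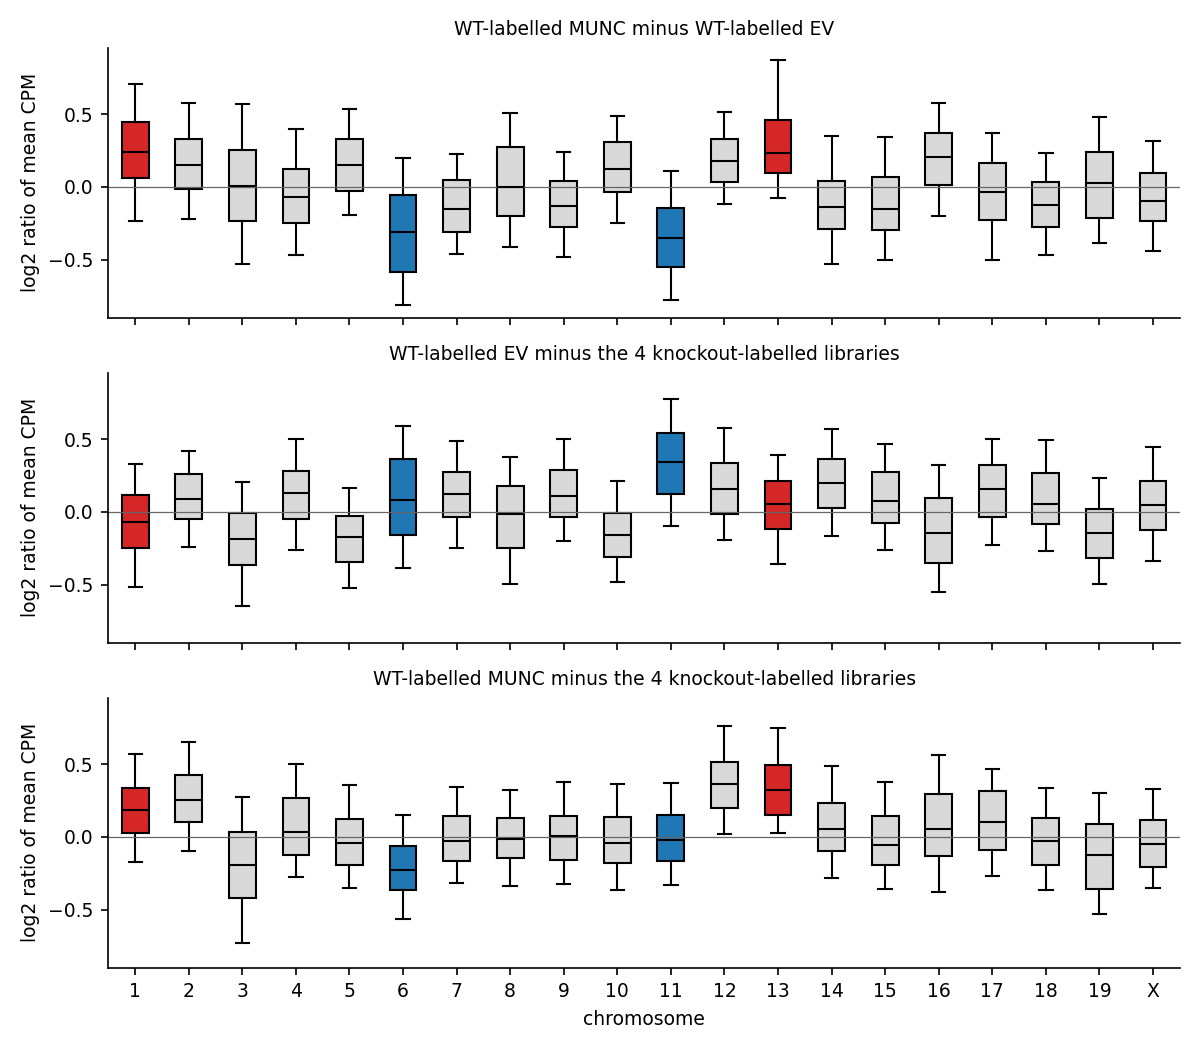
Log2 ratio of mean CPM for genes of at least 5 CPM by chromosome in GM, for WT-labelled MUNC minus EV (top), EV minus the 4 knockout-labelled libraries (middle) and MUNC minus these (bottom); boxes span the quartiles, lines the medians and whiskers the 10th to 90th percentile. Chromosomes 11 and 6 (blue) lie low and 1 and 13 (red) high in the top panel, and chromosome 11 is at 0.34 in the middle panel and -0.02 in the bottom one.

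Called genes also lay next to each other. The next tested gene was also higher for 114 of 904 higher genes with a neighbour (12.6%, beside 6.05% of all genes with a position). The next gene was also lower for 221 of 1152 lower genes (19.2%, beside 7.71%). Around Abcb1b on chromosome 5, 6 neighbouring genes in a row fell: Abcb1a, Abcb1b, Abcb4, Crot, Tmem243 and Dmtf1. Those other than Abcb1b and Crot were chosen after their values were seen.

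Crot, a peroxisomal carnitine acyltransferase, fell from 696 and 613 CPM to 44.2 and 31.7 CPM (log2 -4.11 ± 0.32, edgeR adjusted p = 1.79e-05). Tmem243, a transmembrane protein gene, fell from 96.9 and 118 CPM to 6.02 and 7.21 CPM (log2 -4.02 ± 0.19, edgeR adjusted p = 2.56e-06). Dmtf1, a cyclin D binding transcription factor, fell from 104 and 102 CPM to 40.4 and 35.2 CPM (log2 -1.44 ± 0.13, edgeR adjusted p = 4.85e-05). For all 3 the knockout-labelled libraries lay beside MUNC, with Tmem243 at 5.33 to 6.39 CPM, so that EV was the line standing apart. Abcb4 was under 0.4 CPM in all libraries of the comparison, and its call was lost without the second EV library (adjusted p = 0.0789), the first (0.1) or second MUNC library (0.0962) and with DESeq2 (0.0728). Sri, which encodes the calcium-binding protein sorcin and lies 752 kb before Abcb1b, rose from 66.9 and 54.8 CPM to 108 and 103 CPM. Reads of the paralogs Abcb1a and Abcb1b may have been divided between them.

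Around Peg10 on chromosome 6, Casd1, Sgce, Peg10 and Pon3 fell out of 13 tested genes within 1 Mb. Casd1, a sialic acid acetyltransferase gene, fell from 37.2 and 31 CPM to 12 and 10.1 CPM (log2 -1.63 ± 0.24, edgeR adjusted p = 0.00109). Col1a2, a collagen gene between Bet1 and Casd1 among those tested, was at 3059.6 and 1739 CPM with EV and at 1872 and 1003 CPM with MUNC and did not pass (edgeR adjusted p = 0.472). On chromosome 13, Gpr137b-ps, Prl2c3, Prl2c2, Prl2c5, Gpr137b and Nid1 formed a run of 6 higher genes. Within it, Prl2c5 lost its call without the first (adjusted p = 0.175) or second EV library (0.11) or the second MUNC library (0.135), and Gpr137b without the second EV library (0.0521).

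**Figure D5:**
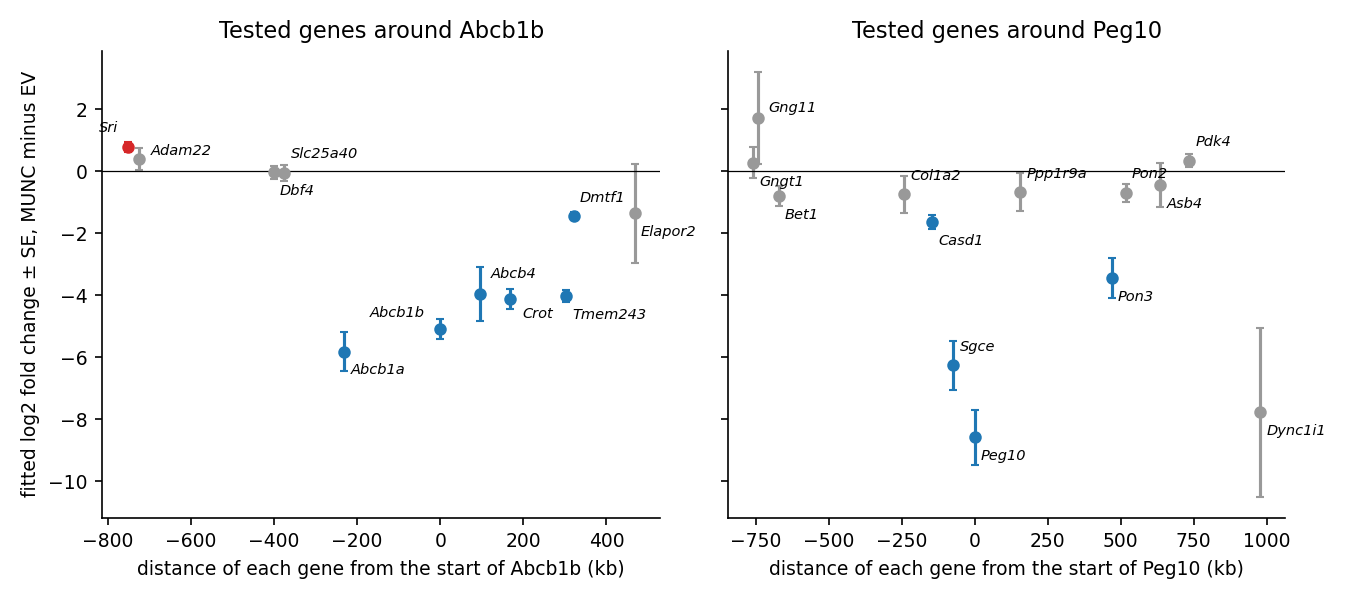
Fitted log2 fold change ± SE of MUNC minus EV in GM for the tested genes within 1 Mb of Abcb1b (left) and Peg10 (right), against the distance from the start of that gene in kb; red is higher, blue lower and grey not past the threshold. Around Abcb1b 6 of 11 genes are lower and Sri is higher, and around Peg10 4 of 13 are lower.

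The same vectors in knockout-labelled cells made no call. Between the 2 MUNC and 2 EV libraries labelled MYOD-/- in GM, 0 of 14972 genes passed with edgeR, 191 (1.28%) had an unadjusted p under 0.05, DESeq2 called 0 and limma 3. In the WT-labelled cells 4105 genes (27.4%) had an unadjusted p under 0.05. The 1.28% is less than a cut at 0.05 gives on average between groups that do not differ. The test was thus cautious for the knockout-labelled cells, and the lack of calls does not show a lack of response. The MUNC change itself differed between the genotypes for 738 genes (4.93%), of which 325 (2.17%) moved upward and 413 downward in WT-labelled relative to knockout-labelled cells. MUNC itself was at 132 and 106 CPM in the knockout-labelled MUNC libraries and at 1821 and 2225 CPM in the WT-labelled ones. Its rise in knockout-labelled cells was 4.11 ± 1.25 on the log2 scale (edgeR adjusted p = 1), and the difference between the genotypes was 4.21 ± 1.63 (edgeR adjusted p = 0.195). The genotype label and the level of MUNC reached cannot be told apart.

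The knockout-labelled libraries were used as a second point of reference for the called genes. Their mean lay nearer to MUNC than to EV for 430 of 905 higher genes (47.5%), for 736 of 1155 lower genes (63.7%) and for 50.9% of all tested genes. Both EV libraries lay above all 6 other GM libraries for 860 of the lower genes and below them for 566 of the higher genes. Both MUNC libraries lay above the other 6 for 584 of the higher genes and below them for 608 of the lower ones. Over all 14972 tested genes, EV lay apart on either side for 3601 and MUNC for 3149. A gene can be counted under both vectors. Only EV stood apart for 529 of the lower and 304 of the higher genes. Passing the test makes such gaps likely.

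Genes of each kind, chosen after their values were seen, included transcription factors. Sim2, a basic helix-loop-helix factor, was at 0.437 and 0.324 CPM with EV, at 20.6 and 26.5 CPM with MUNC and at 12.8 to 14.1 CPM in the knockout-labelled libraries. Foxa2, a factor of endoderm, had 0 counts with EV, 4.07 and 5.85 CPM with MUNC and 0.226 to 0.321 CPM in the knockout-labelled libraries. Sfmbt1, a gene of Polycomb-related chromatin regulation, was at 40.4 and 42.2 CPM with EV, at 295 and 533 CPM with MUNC and at 40.0 to 42.6 CPM in the knockout-labelled libraries. The larger gap to the other libraries was on the EV side for Sim2 and on the MUNC side for Foxa2 and Sfmbt1. Mkx, a homeobox gene of tendon, was at 3.07 and 2.94 CPM with EV, at 0.0317 and 0 CPM with MUNC and at 1.86 to 2.84 CPM in the knockout-labelled libraries.

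In DM, with separate libraries of the same WT-labelled lines, 4980 genes (33.3%) passed. Of these, 2337 genes were higher with MUNC (15.6% of all tested) and 2643 lower (17.7%). Of the 905 genes higher in GM, 708 (78.2%) were also higher in DM and 6 were lower. They made up 30.3% of the genes higher in DM. Of the 1155 genes lower in GM, 869 (75.2%) were also lower in DM and 9 were higher, making up 32.9% of the genes lower in DM. The lines are the same in both conditions, so that this overlap does not separate the vector from the line. The MUNC change differed between GM and DM for 499 genes (3.33%), 313 (2.09%) upward and 186 downward in GM relative to DM.

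Of the lists counted, the interferon response had the most genes whose MUNC change differed between GM and DM. In DM 39 of 40 genes fell and 1 rose, and for 25 of the 40 the change in DM was the more negative by the test of the difference. Isg15 reached 633 and 774 CPM in the WT-labelled EV libraries in DM, far above their level in GM, and 4.91 and 5.92 CPM in the MUNC libraries. Knockout-labelled libraries in DM were also far above their level in GM with either vector. They held 227 to 285 CPM of Isg15. The difference of its MUNC change between GM and DM was 2.65 (log2, edgeR adjusted p = 0.0411) and was not past the threshold in 6 of the 8 fits without 1 library. Sarcomere genes also differed. In DM 18 of 41 rose and 0 fell, and for 5 the test of the difference was passed. Myh3 was at 0.932 and 0.543 CPM with EV and at 33.2 and 7.9 CPM with MUNC in DM (log2 4.78, edgeR adjusted p = 0.000126). Knockout-labelled libraries in DM held Myh3 at 208 to 314 CPM with either vector, far above both WT-labelled groups. Musk and Dysf were already higher in GM, and their MUNC changes in GM and DM did not differ past the threshold (edgeR adjusted p = 0.509 and 0.0599).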

How the data were processed

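Poly(A) RNA of 16 libraries was sequenced in pairs of reads after a directional library preparation, per the labels' protocols. Per the submitters' processing notes bcl2fastq, kallisto and mm10 were used. Their versions and the strand setting are not given in the sources used, so that reads of overlapping genes on opposite strands cannot be told apart. Each library has 1 table deposited by the authors, and per the file headers it holds an estimated count and TPM for each of 35818 transcripts. Transcripts were named through RefSeq (35492) or GENCODE (188), and the 138 others, with 0.28% to 0.941% of the counts, were left out.

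Estimated counts were summed over 24497 genes and rounded. In R 4.3.3, edgeR 4.0.16 (TMM, filterByExpr, 14972 genes) was fitted to all 16 libraries with 1 mean for each of 8 groups (8 residual degrees of freedom), and each contrast was tested by quasi-likelihood with Benjamini-Hochberg adjustment over all tested genes at 0.05. An interaction is the difference of the MUNC change between the genotype labels or between GM and DM. CPM values are per library, and SEs are those of the fitted log2 fold change. The script was tested on simulated data. Totals per library limit the precision of levels under about 0.1 CPM, where few counts were seen.

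Alternatives were DESeq2 1.42.0, its size factors within edgeR, limma 3.58.1 on log2(TPM + 1), no filter, a filter of 5 CPM in 2 libraries, an effective length offset, only the comparison's own groups, a replicate block, Zrsr1 and Gm45923 left out, a fold threshold of 2, a threshold of 0.01, and each library left out. The members and lists were chosen with earlier results of these data known. The naming rule took a gene panel and the 15 largest changes each way with at least 5 CPM and groups that did not overlap. It took the 5 largest differences in level each way, and up to 6 called members of each list. For a list with none called it took the 2 most abundant members. It also took the 5 largest differences of the MUNC change each way with at least 5 CPM. Protein-coding genes within 500 kb of MUNC completed it. The text gives examples. Genes named outside this rule were chosen after their values were seen: Abcb1a, Abcb4, Tmem243, Dmtf1, Sri, Casd1, Pon3, Col1a2, Bet1, Ifitm3, Gpr137b-ps, Prl2c5, Gpr137b, Sfmbt1, Sim2, Foxa2, Mkx and Kif26a. Motifs were searched on both strands of 32851 RefSeq promoters, 250 bases before to 50 after each start.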

Additional observations from a re-analysis of the deposited data

Results flagged for a closer look

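The MUNC change in GM differed between WT-labelled and knockout-labelled cells, by the test of the difference itself (interaction in edgeR). The genes that passed include the 13 given here. The difference, WT-labelled minus knockout-labelled on the log2 scale, was 8.71 for Itpkb, 7.60 for Epha4, 7.49 for Galnt18, 7.33 for Npnt, 7.27 for Ptx3 and 5.63 for Myod1. It was -8.52 for Peg10, -7.59 for Nbea, -6.46 for Cxcl10, -6.41 for Nefm, -6.12 for Unc5c, -6.08 for Sgce and -4.45 for Isg15. Over these 13 the edgeR adjusted p-values ranged from 0.0002 (Itpkb) to 0.0109 (Nefm). Other genes named above also passed, such as Pogk (6.37), Igf2bp2 (4.82), Dysf (4.18) and Abcb1b (-5.14).

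The MUNC change in WT-labelled cells differed between GM and DM by the same kind of test for genes that include 13 given here. The difference, GM minus DM on the log2 scale, was 9.89 for Oas1a, 9.55 for Usp18, 9.40 for Oas2, 9.30 for Gm4951, 9.29 for Trim30d, 4.12 for Ly6a and 2.65 for Isg15. In these genes the EV libraries were high in DM, such as Oas1a at 334 and 361 CPM, beside 0.118 and 0.0383 CPM with MUNC. Knockout-labelled libraries in DM held Oas1a at 25.6 to 49.7 CPM. The difference was -7.17 for Prg4, -5.89 for Lix1, -5.87 for Myh3, -5.15 for Gpr153, -4.02 for Ccnb1ip1 and -3.07 for Tagln. Prg4 was at 32.6 and 28.7 CPM with MUNC in DM and at 0.154 and 0.0679 CPM with EV. Reads of Oas1a and its close paralogs may have been divided between them. Other genes named above also passed between GM and DM, such as Igf2bp2 (3.58), H2-K1 (2.31), H2-D1 (2.23) and Axin2 (-3.81).

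The genes in each list were the 5 largest differences past the threshold each way, or belonged to the named panel. The former were taken among genes with a mean of at least 5 CPM over the 8 libraries compared. Of these 26 differences, 11 passed the test under every alternative other than 2 stricter rules for a call, and none changed sign. With a fold threshold of 2, 22 of the 26 passed, and 18 did at an adjusted p of 0.01. With only the groups compared, the calls of Galnt18, Npnt, Ptx3, Nefm, Myod1 and Isg15 (genotypes) and of Isg15, Myh3 and Trim30d (GM and DM) were lost. Between GM and DM, leaving out 1 library also ended the call of Oas1a (adjusted p = 0.167 and 0.137 without the first or second MUNC library in GM), Usp18 (0.392), Oas2 (1), Gm4951 (0.103) and Trim30d (1) without the first MUNC library in GM, and of Gpr153 (0.399) without the first EV library in GM. Myh3, Tagln and Isg15 lost theirs without 1 or more of the libraries.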

How the results depend on the processing

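For WT-labelled cells in GM, 2060 genes passed. The count was 818 with only the comparison's own groups, 463 with a fold threshold of 2, 922 at an adjusted p of 0.01 and 963 to 1200 without 1 library. It was within 1.5 times of 2060 with DESeq2's size factors (2066), no filter (1783), 5 CPM (1680), the length offset (2060), DESeq2 (2664), limma (1772) and without Zrsr1 and Gm45923 (2100). With the replicate number as a block it was 2986. The labels do not say that a number marks a common batch. Deviations of same-numbered libraries correlated at 0.559 between EV and MUNC and at 0.508 to 0.712 over all pairs of the 4 GM groups, and Zrsr1 was far higher in the second replicate of all 8 groups. This is a hint from the data that the numbers tie libraries together, not from the design. The block ended no call of a named gene. DESeq2's size factors and leaving out Zrsr1 and Gm45923 moved the median of all genes from -0.03 to -0.01 and 0.01 on the log2 scale.

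For knockout-labelled cells limma called 3 genes (4933406F09Rik, Dio3os and Gm1140, chosen after their values were seen). In DM the count was 1288 with a fold threshold of 2, 2962 at 0.01 and 3140 to 4119 without 1 library. The difference between genotypes had 225 calls with its own groups, 1168 with the block, 261 with a fold threshold of 2, 1246 with DESeq2, 288 at 0.01 and 397 to 740 without 1 library. The difference between GM and DM had 1033 with the block, 137 with a fold threshold of 2, 1155 with DESeq2, 944 with limma, 176 at 0.01 and 198 to 496 without 1 library.

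Of 77 called named genes 59 kept their call in every alternative other than the 2 stricter rules and 0 reversed. Of the 77, 52 passed the fold threshold of 2 and 69 passed at 0.01. Of uncalled genes, 8 changed sign. Without 1 library, log2 values ran from -2.20 to 1.74 for Cdh15, -0.94 to 2.70 for Id1, -0.74 to 2.54 for Id3, -0.71 to 1.15 for Col3a1, -0.16 to 0.09 for Myf5, -1.85 to 1.20 for Acta1, -0.30 to 0.71 for Acta2 and -0.31 to 0.06 for Mki67. Acta1 was at -0.18 with limma. The cause was not tested.

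Groups of 2 libraries, 1 line per vector and levels under about 0.1 CPM limit every comparison.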
